A study of Mus musculus with 1 sample.

Results

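The 10 genes described here encode secreted, membrane and brush border products of stomach or gut epithelium, and their transcripts were measured in cultured mouse lung cancer cells. They are Ctse, Tff1, Tff2, Gkn1, Muc5ac, Cldn18, Anxa10, Vil1, Lgals4 and Fabp2, and they were read by 14 of the 34945 probe sets on the array that the platform annotation assigns to 1 gene, out of 18193 gene symbols in all. Every probe set of each gene was used. They were chosen by the kind of product they encode and with their signals on this same array already known, so the signals below describe them and test nothing.

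The RNA came from 1 cell line that was established from a KR tumor, labelled KR Primary, of the strain B6/J. The labels do not spell out KR, and the series title refers to mouse kras tumors. The cells were grown in RPMI1640 medium with fetal bovine serum and collected close to confluence, and the labels name no drug or other agent. The data analysed here are 1 sample on 1 Affymetrix 3′ expression array, so there is no comparison between conditions, no replicate error and no p-value, and a cell line shows what 1 culture contained, not the tumor it came from.

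The stomach lining is covered by mucous cells that secrete gel-forming mucin, trefoil peptides, which bind mucus and aid repair, and gastrokines. Deeper glands hold acid-secreting parietal cells and enzyme-secreting chief cells. Enterocytes of the intestine carry a brush border of microvilli bundled by villin and take up nutrients through it. Lung and gut epithelium both arise from endoderm, and in mouse lung adenocarcinoma models loss of the lung regulator Nkx2-1 is known to be accompanied by gastric gene products. That background is not a result of these data.

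A probe set reports how strongly a group of short probes hybridized to a transcript, in arbitrary fluorescence units. Probe sets differ in brightness for equal RNA, so each was set against a background on the same array and the order of signals between genes is not an order of RNA amounts. The background set was 126 probe sets for smell, pheromone and bitter taste receptors and keratin-associated proteins of hair, with a median signal of 6.41. Its 95th percentile, 16.8, is called the background line, and its highest signal, 60.6, the upper limit. The upper limit rests on 1 probe set, for Krtap12-1, and the next highest background signal was 42.2, for Krtap10-4. Both are keratin-associated genes, and without such genes the highest background signal was 19.2.

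The genes grouped here as membrane or brush border products were all above background, and those grouped as secreted were divided. Both membrane genes (Cldn18 and Anxa10), all 3 brush border genes (Vil1, Lgals4 and Fabp2) and 2 of the 5 secreted genes (Ctse and Tff1) exceeded the upper limit on at least 1 probe set. The secreted genes Tff2, Gkn1 and Muc5ac did not exceed the line on any probe set. In total 7 of 10 genes had signal above the line, beside 63.3% of all genes on the array, and these 7 were the ones above the upper limit too, beside 47.5%. The share above the line is near that of the whole array, so the count by itself sets these genes apart from no others. In RNA pooled from a whole culture, a few cells with much of a transcript and many cells with little of it cannot be told apart.

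Genes with more probe sets have more chances to pass. Of the 6 genes with 1 probe set, 4 were above the line, beside 48.4% of all genes with 1 probe set, and the same number were above the upper limit, beside 32.6%. Of the 4 genes with 2 probe sets, 3 were above the line, beside 72.4% of all such genes, and 3 were above the upper limit, beside 54.8%. Counted by probe set, 10 of 14 passed the line, beside 60.9% of one-gene probe sets, and 9 passed the upper limit, beside 41.1%. When every probe set of a gene had to exceed the line, 7 genes remained, beside 47.0% of all genes. When every probe set had to exceed the upper limit, 6 of the 10 genes remained, beside 27.3% of all genes, and the gene that dropped out was Ctse. The median of the highest signals was 213 over the 10 genes and 48.3 over all genes.

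**Figure D1:**
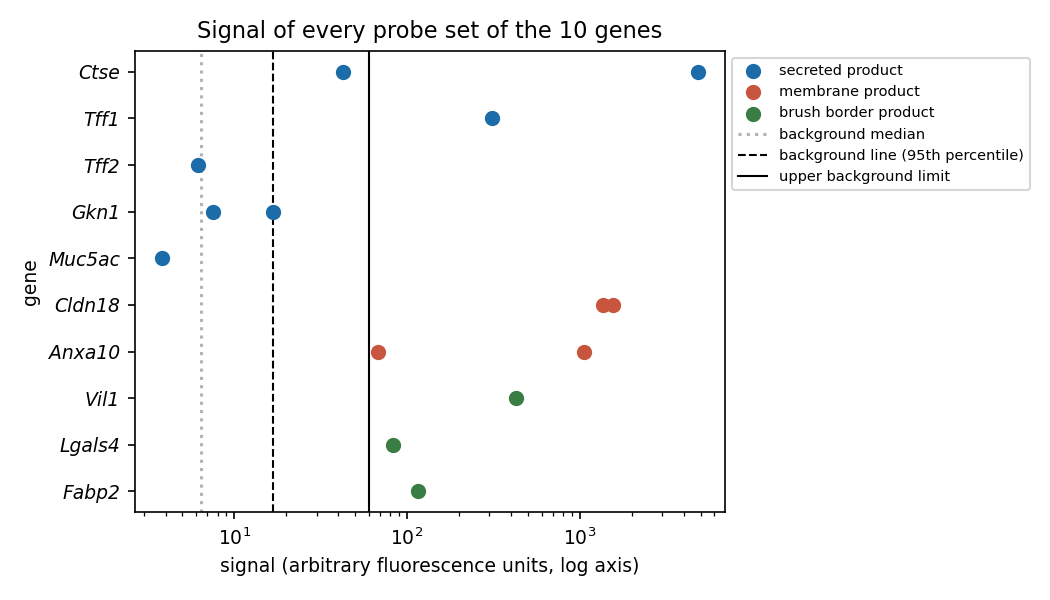
Signal of each of the 14 probe sets, on a log axis in arbitrary fluorescence units, with 1 row per gene and colours for secreted, membrane and brush border products; the vertical lines mark the background median (6.41), the background line (16.8) and the upper limit (60.6). Tff2, Gkn1 and Muc5ac lie at or left of the line, and 9 probe sets of the other genes lie right of the upper limit, with 1 Ctse probe set at 42.5 between them.

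Among the genes grouped here as secreted, Ctse encodes cathepsin E, an aspartic protease of gastric mucous cells. Whether these cells secrete it was not tested. Its 2 probe sets gave signals of 4845 and 42.5. The first exceeded all 126 background probe sets and 99.6% of one-gene probe sets, at 288 times the line. The second was 2.53 times the line and below the upper limit, so only 1 of the 2 probe sets places the transcript above every background signal. The 2 probe sets differed by 6.83 on the log2 scale, a gap larger than in 97.6% of the 4695 genes with 2 probe sets, whose median gap was 1.60. The dimmer probe set has a name ending in _s_at, which marks probes shared between transcripts. Whether the gap reflects transcript forms or probe brightness was not tested.

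Tff1 encodes the trefoil peptide of gastric pit cells. Its only probe set gave 309.5, which is 18.4 times the line and 5.11 times the upper limit, and exceeded 82.0% of one-gene probe sets. Tff2 encodes the trefoil peptide of gastric neck cells, and its only probe set gave 6.19, close to the background median, with 66 of the 126 background probe sets above it. Tff3, the intestinal trefoil peptide and the other member of the family, gave 13.4, below the line. In the RefSeq gene table Tff2 lies between Tff3 and Tff1, with no other protein-coding gene among the 3, so the gene above background and those below it are immediate neighbours. On the other side of Tff1, the protease gene Tmprss3 gave 1.37, also below the line.

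Gkn1 encodes gastrokine 1, a protein secreted by gastric surface cells. Its 2 probe sets gave 16.7 and 7.51. The higher of these lay just below the line, at 0.996 times its value, with 8 background probe sets above it, and the lower was exceeded by 55. The higher one has a name ending in _x_at, for probes that can bind other transcripts. The gap between the 2 was 1.16 on the log2 scale, larger than in 39.1% of genes with 2 probe sets. Its relatives Gkn2 and Gkn3 gave 20.1 and, on a pair of probe sets, 36.9 and 12.9, so both passed the line on 1 probe set and neither passed the upper limit. Those probe sets also have names ending in _a_at (Gkn2) or _x_at (Gkn3), and without probe sets of such names 0 of the gastrokine genes passed the line. Gkn2 has no other probe set, so it was not measured there and could not pass. No gastrokine gene gave a signal outside the range of the full background set. Gkn2 and Gkn3 did exceed 19.2, the highest background signal without keratin-associated genes.

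Muc5ac encodes the gel-forming mucin of gastric surface mucus, which goblet cells of diseased airways also secrete. Its only probe set gave 3.79, with 85 of the 126 background probe sets above it and 13.9% of one-gene probe sets below it. It sits between Muc2 and Muc5b in the RefSeq gene order. Muc2, the intestinal mucin, gave 18.7, and Muc5b, the airway mucin, gave 13.9, so of these 3 gel-forming mucins Muc2 alone passed the line, and none passed the upper limit. A single dim probe set cannot tell an absent transcript from a probe set that reports weakly.

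Of the membrane genes, Cldn18 encodes claudin-18, a tight junction protein of stomach and of lung alveoli that is made in a lung and a stomach form from alternative first exons. Its 2 probe sets gave 1555 and 1367. Both exceeded every background probe set, at 92.6 and 81.4 times the line, and 96.6% and 96.0% of one-gene probe sets. They differed by 0.19 on the log2 scale, a smaller gap than in most genes with 2 probe sets, since 6.94% of those had a smaller one. Cldn18 was the gene with the closest pair of probe sets among the 4 that had 2. The files used here do not say which first exon either probe set follows, so the lung and stomach forms cannot be told apart.

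The promoter table of RefSeq (GRCm38.p6), shown here because the 2 forms begin at different places, holds 2 starts for Cldn18, 7204 bases apart on the minus strand, and a promoter for 6 of the 10 genes in all. The windows run from 250 bases before the start to 50 bases after it. Capitals mark matches, on either strand, to the letters TATAAA of a TATA box, to CAAAGT, an HNF4 half-site that is also the first part of the longer HNF4 site CAAAGTCCA, to TGTTTAC for FOXA factors, to AGATAA for the zinc finger factors of the GATA family, to TTTATNG for CDX factors, to CACTTGA for NKX2-1 and to CCACCC for KLF factors. The upstream start is at chr9:99717218-99717517, minus strand, and the downstream start at chr9:99710014-99710313, minus strand.
Cldn18, upstream start: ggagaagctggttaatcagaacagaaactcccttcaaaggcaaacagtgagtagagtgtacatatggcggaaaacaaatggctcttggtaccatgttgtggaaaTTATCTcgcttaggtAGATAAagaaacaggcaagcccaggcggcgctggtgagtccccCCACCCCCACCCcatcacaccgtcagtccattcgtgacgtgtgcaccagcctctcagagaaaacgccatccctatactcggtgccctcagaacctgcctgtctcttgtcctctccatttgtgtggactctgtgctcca
Cldn18, downstream start: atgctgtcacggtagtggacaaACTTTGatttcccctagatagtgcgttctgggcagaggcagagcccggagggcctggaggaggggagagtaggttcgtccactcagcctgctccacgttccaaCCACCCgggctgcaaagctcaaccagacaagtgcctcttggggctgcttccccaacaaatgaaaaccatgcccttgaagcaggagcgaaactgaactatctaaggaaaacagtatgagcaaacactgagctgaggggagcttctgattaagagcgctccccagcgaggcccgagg
The upstream window holds 2 GATA matches, at positions -146 to -141 and -131 to -126 from the start, and 2 adjoining KLF matches, at -88 to -83 and -82 to -77. The downstream window holds 1 HNF4 half-site match, at -228 to -223, and 1 KLF match, at -125 to -120. The windows share no match but the KLF letters, which 31.5% of the 32817 promoters of the table also hold.

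Anxa10 encodes annexin A10, a calcium-dependent membrane-binding protein that is known from gastric epithelium. Its 2 probe sets gave 1051 and 67.6. The brighter was 62.5 times the line and exceeded 94.4% of one-gene probe sets, and the dimmer was 4.02 times the line and 1.12 times the upper limit. Both therefore exceeded all 126 background probe sets, the dimmer by a small margin. Their gap of 3.96 on the log2 scale was larger than in 84.6% of genes with 2 probe sets. The brighter one has a name ending in _a_at, for probes that match several transcripts of the same gene, and RefSeq lists 2 curated transcripts for it. The protein-coding genes on either side, Ddx60 and Spock3, gave at most 7.02 and 3.85 and were below the line.

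Vil1 encodes villin, which bundles the actin filaments of microvilli. Its only probe set gave 428, which is 25.5 times the line and 7.07 times the upper limit, and exceeded 86.3% of one-gene probe sets. Both of its neighbours, Ctdsp1 and Usp37, also exceeded the upper limit, with highest signals of 124 and 126. Fabp2 encodes the fatty acid binding protein of enterocytes. Its only probe set gave 116, which is 6.92 times the line and 1.92 times the upper limit, and exceeded 68.1% of one-gene probe sets. Lgals4 encodes galectin-4, a carbohydrate-binding protein of the gut that helps carry proteins to the apical membrane. Its only probe set gave 82.6, which is 4.92 times the line and 1.36 times the upper limit, and exceeded 63.3% of one-gene probe sets. All 3 brush border genes thus exceeded every background probe set, each on the 1 probe set it has. Lgals6, a close copy of Lgals4 that some mouse strains carry, was not analysed here. The gene after Lgals4 in the RefSeq gene order is Lgals7, and whether this B6/J line carries Lgals6 was not tested.

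**Figure D2:**
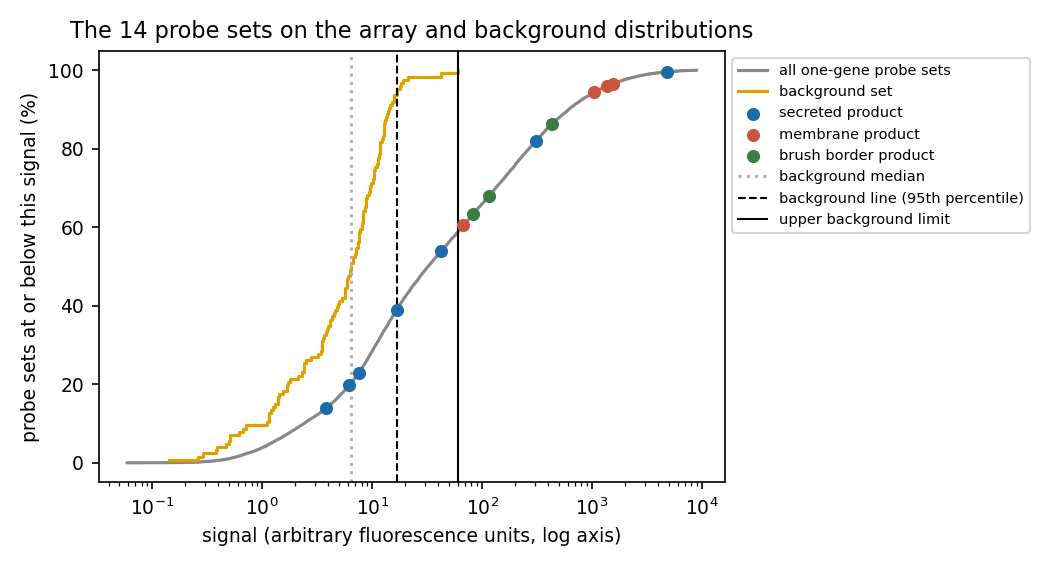
Cumulative share of probe sets (percent, vertical axis) at or below each signal (log axis, arbitrary units) for all 34945 one-gene probe sets and for the 126 background probe sets, with the 14 probe sets of the 10 genes placed on the array's curve by their own signal. The probe sets of the 7 genes above background lie from 53.9% upward, and the 4 probe sets of Tff2, Gkn1 and Muc5ac lie at 39.0% or below.

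The promoters of 3 more genes are given to show how unlike the start regions are, for 2 genes above background (Anxa10 and Fabp2) and 1 below the line (Gkn1). They are marked as for Cldn18 and lie at chr8:62123144-62123443, minus strand, for Anxa10, at chr3:122894822-122895121, plus strand, for Fabp2 and at chr6:87350866-87351165, minus strand, for Gkn1.
Anxa10: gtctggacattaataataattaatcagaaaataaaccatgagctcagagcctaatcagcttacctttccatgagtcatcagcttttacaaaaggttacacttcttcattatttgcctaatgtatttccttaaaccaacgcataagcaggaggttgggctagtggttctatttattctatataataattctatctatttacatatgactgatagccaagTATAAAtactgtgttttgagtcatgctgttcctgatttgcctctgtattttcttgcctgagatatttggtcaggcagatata
Fabp2: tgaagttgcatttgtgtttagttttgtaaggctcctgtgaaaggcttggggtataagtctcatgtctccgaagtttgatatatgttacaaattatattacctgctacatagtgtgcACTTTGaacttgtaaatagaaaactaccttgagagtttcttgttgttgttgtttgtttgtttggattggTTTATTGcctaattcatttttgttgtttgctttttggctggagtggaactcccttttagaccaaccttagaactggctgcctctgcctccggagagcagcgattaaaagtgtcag
Gkn1: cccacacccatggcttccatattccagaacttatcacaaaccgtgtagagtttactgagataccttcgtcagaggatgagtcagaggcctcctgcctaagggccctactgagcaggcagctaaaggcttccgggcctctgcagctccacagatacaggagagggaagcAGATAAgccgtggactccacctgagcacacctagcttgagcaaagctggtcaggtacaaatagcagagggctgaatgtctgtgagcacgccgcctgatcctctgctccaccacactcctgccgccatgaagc
The Anxa10 window holds a TATA box at positions -32 to -27, the only one among the 7 member windows, beside 13.6% of all promoters. The Fabp2 window holds an HNF4 half-site at -134 to -129 and a CDX site at -65 to -59. The Gkn1 window holds a GATA site at -82 to -77.

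Over the 7 windows, 2 held an HNF4 half-site, beside 14.4% of all promoters, and none held the longer HNF4 site, beside 0.475%. A GATA site was in 2, beside 11.2% of all promoters, a CDX site in 1, beside 10.9%, and a KLF site in 3, namely Vil1 and both Cldn18 starts, beside 31.5%. A FOXA site and an NKX2-1 site were in none, beside 3.65% and 3.06% of all promoters. The Lgals4 window held none of the motifs. The windows had from 1 CpG (Anxa10) to 10 CpGs (the downstream Cldn18 start), with a median of 5 beside 7 over all promoters, and GC contents from 34.3% (Anxa10) to 61.7% (Vil1), beside a median of 52.7%. These matches are letters in a window and say nothing of whether a factor was bound.

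The transcription factors that act in gut and lung epithelium were read from the same RNA. Of 16 measured, 8 were above the line, beside 63.3% of all genes, and 6 were also above the upper limit, beside 47.5%. Foxa1 and Foxa2, forkhead factors of endoderm, gave 2021 and 239, and Foxa3 gave 22.0, between the line and the upper limit. Hnf4a, a nuclear receptor of hepatocytes and gut lining, exceeded the line on each of 4 probe sets, from 52.2 to 813, whereas the gut form Hnf4g gave at most 6.95. Gata6, a zinc finger factor of endoderm, passed on all 3 probe sets, from 58.1 to 564, while Gata4 reached 19.8 and Gata5 9.36. Klf4 and Klf5, epithelial zinc finger factors, reached 953 and 727, though the lowest Klf5 probe set gave 7.42, below the line. The intestinal factors Cdx1 and Cdx2, at most 1.65 and 5.56, the antral and pancreatic factor Pdx1, at most 2.10, the foregut factor Sox2, at 2.40, the goblet cell factor Spdef, at 7.86, and the lung factor Nkx2-1, at 7.66, were not above the line. The brush border genes Vil1, Lgals4 and Fabp2, all 3 above the upper limit, were thus read in an RNA sample in which the probe sets of both Cdx factors were below the background line. Whether any of these factors acts on the 10 genes was not tested.

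Most of the remaining stomach genes measured did not exceed the upper limit, and neither did Tff2, Gkn1 and Muc5ac. Ctse, Tff1, Cldn18 and Anxa10 did, but they were chosen with their signals known, so that contrast tests nothing. The shares over all genes were 63.3% at the line and 47.5% at the upper limit. Of 13 other surface and neck mucous cell genes, 7 were above the line, and 3 were also above the upper limit. Those 3 were the membrane mucin Muc1 at 1309, the surface antigen Psca at 90.6 and the water channel Aqp5 at 85.3, and the lowest were Sult1c2 at 6.73 and the mucin-folding protein gene Agr2 at 1.65. Of 14 chief, parietal and endocrine cell genes, 1 was above the line, and none was above the upper limit. The highest were the hormone gene Ghrl at 22.9, the pepsinogen gene Pga5 at 16.4 and the proton pump gene Atp4a at 13.6, and the lowest were Hdc at 1.96 and Gast at 0.712. The signals of the gland cell types of the stomach were therefore within the range of the full background set throughout this list. Ghrl did exceed 19.2, the highest background signal without keratin-associated genes.

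Other enterocyte and microvillus genes were divided too, where the shares over all genes were 63.3% at the line and 47.5% at the upper limit. Of 23 measured, 10 were above the line, and 7 were also above the upper limit. The highest were the actin linker Ezr at 5044, the actin regulator Eps8 at 682 and the actin bundler Pls1 at 301. The lowest were the digestive peptidase Anpep at 2.19 and the apolipoprotein Apoa4 at 2.89. The genes that build the microvillus, as Vil1 does, lay on both sides of the line: the actin bundler Espn at 3.18, the scaffold Ush1c at 7.65, the motor Myo1a at 14.3 and the adhesion protein Cdhr5 at 16.0 were below it, and Cdhr2, the partner of Cdhr5, gave 63.8. Fabp1, which is coexpressed with Fabp2 in enterocytes, gave at most 9.94 and was below the line on both probe sets. Of 10 goblet and Paneth cell genes, 3 were above the line, and 1 was also above the upper limit. These were Fcgbp, a mucus protein gene, at 247, and Mmp7 at 18.9 and Muc2 at 18.7, whereas Reg3g at 3.09 and Retnlb at 0.790 were the lowest.

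**Figure D3:**
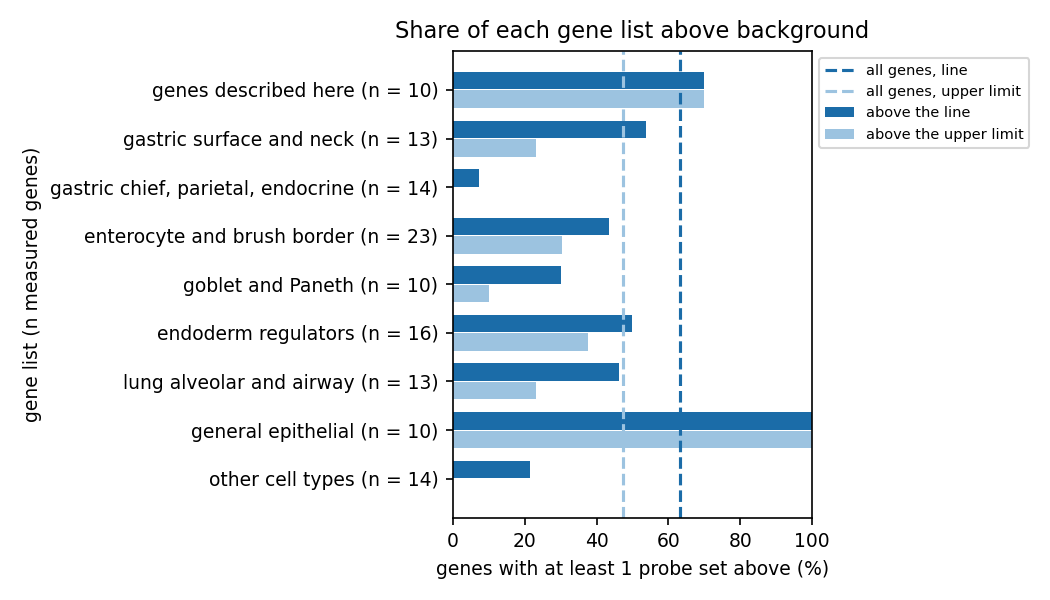
Share of the measured genes of each list (percent) with at least 1 probe set that passes the background line (dark bars) and the upper limit (light bars); dashed lines give the share over all genes (63.3% and 47.5%). The 10 genes described here stand at 70%, and no gene of the chief, parietal and endocrine list or of the other cell types list is above the upper limit.

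Cldn18 and the surfactant-related lung genes relate to the labelled tissue of origin, and the surfactant protein genes were divided. Unless another share is given, the counts of this paragraph stand beside 63.3% of all genes at the line and 47.5% at the upper limit. Of 13 lung alveolar and airway genes, 6 were above the line, and 3 were also above the upper limit, namely the surfactant protein gene Sftpd at 397, the lipid transporter gene Abca3 at 370 and Hopx at 132. The remaining genes above the line were Sftpb at 28.9, Slc34a2 at 24.6 and Sftpc, whose pair of probe sets gave 21.1 and 5.49. None of these exceeded the upper limit. Sftpa1, another surfactant protein gene, gave at most 10.0 and did not reach the line. The lowest were the club cell gene Scgb1a1 at 1.38 and Napsa at 1.94. Because lung alveoli also express Cldn18, its signal cannot be counted for stomach over lung. All 10 general epithelial genes were above the upper limit, from Krt18 at 7600, Krt8 at 7422 and Krt7 at 5723 down to Cldn4 at 1150 and Esrp1 at 760.5. Of 14 genes of leukocytes, fibroblasts, endothelium and red cells, 3 were above the line, and none was above the upper limit, the highest being Kdr at 30.3, Col1a2 at 19.3 and Cdh5 at 17.4 and the lowest Pdgfrb at 3.95 and Cd3e at 3.34. With the line at the 99th percentile of the background set, the share over all genes fell to 52.8%. The counts above that line fell to 3 lung genes and 0 genes of other cell types. They fell to 4 gastric surface and neck genes and 1 goblet or Paneth cell gene. Among 5 measured housekeeping genes, which served as a positive control, all were above the upper limit on at least 1 probe set. The highest were Rpl13a at 8049, Eef1a1 at 7056 and Actb at 5921, and the lowest were Hprt at 2540 and Tbp at 198. The other Tbp probe set gave 3.56, below the background median. Every probe set was above the line for 4 of the 5 genes, beside 47.0% of all genes.

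The families of the 10 genes differed in how many relatives gave signal, where the shares over all genes were 63.3% at the line and 47.5% at the upper limit. Tff1 was the 1 gene of 3 trefoil peptides above the line. Fabp2 was 1 of 2 genes above the upper limit among 13 measured fatty acid and retinoid binding protein genes, the other being Fabp5, the epidermal form, at 4691. The next, Fabp3, gave 22.5, and the lowest were Crabp1 at 1.93 and Pmp2 at 1.05. In this family Fabp2 was thus among few genes outside the background range. Of the 5 genes above the line, 2 stayed above it at the 99th percentile, where the share over all genes was 52.8%.

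Ctse was 1 of 4 genes above the upper limit among 8 pepsin-like aspartic proteases, with the lysosomal Ctsd at 2724 and the membrane proteases Bace1 at 397 and Bace2 at 253. The gastric proteases of the same family, Pgc at 5.20, Pga5 at 16.4 and the calf rennet homolog Cym at 17.3, gave signals within the background range, and Napsa, the lung member, was the lowest. Cathepsin E was therefore the one stomach protease of this family with a signal above every background probe set. Cldn18 was 1 of 9 genes above the upper limit among 19 claudins, and 12 were above the line, shares that match those of the whole array. They included Cldn7 at 3331 and Cldn3 at 1665, with Cldn11 at 3.13 and Cldn16 at 0.688 the lowest.

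The families of Anxa10, Vil1 and Lgals4 were broadly above background. Anxa10 was 1 of 10 genes above the upper limit among 11 annexins, with Anxa1 at 6678, Anxa2 at 6411 and Anxa3 at 5937 the highest, Anxa9 at 151 lower and Anxa13, the gut annexin, the only one below the line at 15.9. Vil1 was 1 of 7 above the upper limit among 8 villin and gelsolin genes, with Gsn at 3677, Capg at 3129 and Svil at 849 the highest and Avil at 135 and Scin at 16.0 the lowest. Lgals4 was 1 of 6 above the upper limit among 8 galectins, with Lgals3 at 3322, Lgals1 at 475 and Lgals8 at 379 the highest and Lgals12 at 18.3 and Lgals7 at 11.6 the lowest. For these 3 genes, signal above background was shared by most of their relatives. When every probe set had to exceed the line, 9 annexins, 5 villin and gelsolin genes and 6 galectins remained, beside 47.0% of all genes. Without probe sets whose names end in _x_at, _s_at or _a_at, the counts above the line were 6, 5 and 5, beside 60.5% of all genes still measured. Genes left with no probe set are not measured there, so a lower count need not mean that a gene fell below the line.

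**Figure D4:**
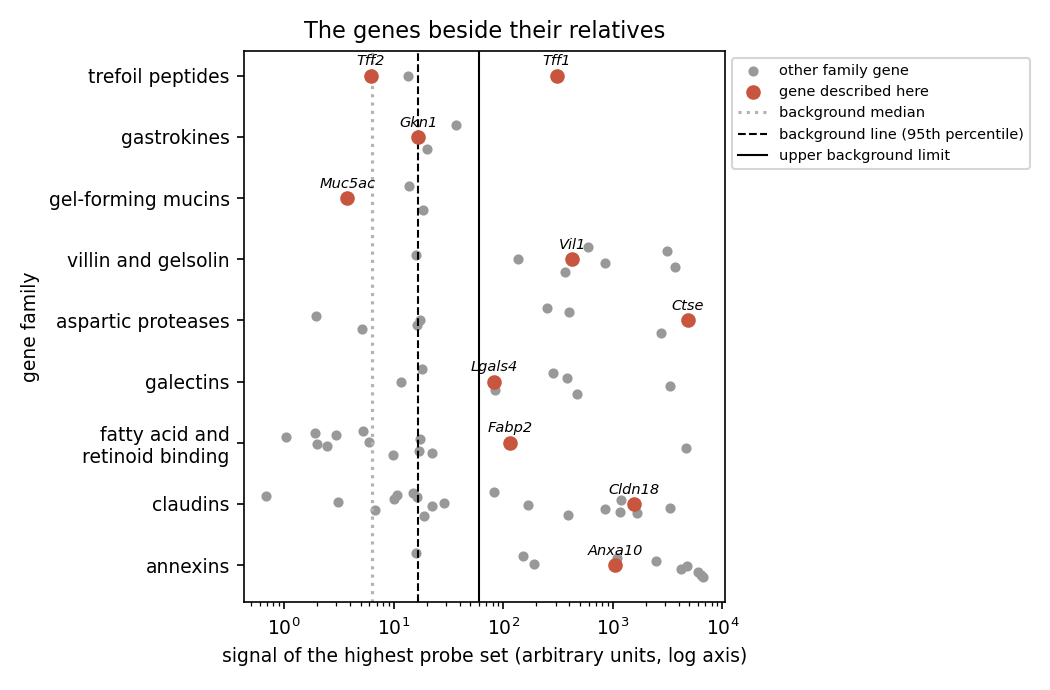
Signal of the highest probe set of each measured gene (log axis, arbitrary units), with 1 row per gene family, the 10 genes in red with their names and their relatives in grey; vertical lines mark the background median, the line and the upper limit. Probe sets differ in brightness, so the picture shows which genes lie outside the background range and not which RNA is more abundant: among the trefoil peptides Tff1 alone does, and among the annexins all but 1.

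The protein-coding genes that flank the 10 genes were divided too. Of 19 measured, 10 were above the line, and 7 were also above the upper limit, a count that includes Tff1 and Tff2 as neighbours of each other and stands beside 63.3% and 47.5% of all genes. Ctse lies between Avpr1b, at 1.17, and Rab7b, whose highest signal was 68.8. Cldn18 lies between Sox14, at 4.27, and Dzip1l, at 243. Lgals4 lies between Ech1, at 241, and Lgals7, below the line, and Fabp2 follows Pde5a, whose highest signal was 133. The flanks of Ctse, Cldn18 and Lgals4 thus each had 1 gene above the upper limit and 1 below the line.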

How the data were processed

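RNA from 1 culture was labelled with biotin and read on 1 array, per the labels. What the authors deposited is 1 linear signal intensity for each probe set, running from 0.0591 to 8928. The submitters' processing notes name Affymetrix Expression Console, but no source used here gives its algorithm or its background correction.

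Of 45101 probe sets, 34945 were kept because the platform annotation gives them 1 gene, while 932 with several names, 9160 with none and 64 controls were left out. No probe set with several names includes a member. Gene IDs were looked up in RefSeq (GRCm38.p6) for current symbols. A gene was above a threshold if its highest probe set was. The members and lists were chosen with earlier results of these data known. Beyond the members, genes were named as the 3 highest and 2 lowest of each list and every regulator. Others were chosen after their values were seen. These were the relatives, microvillus, enterocyte and lung genes and neighbours that a result turns on. Promoters came from RefSeq (GRCm38.p6), 32817 windows after removal of duplicate positions. The array gives no coordinates of its own, and the number of arrays limits the precision. The calling and motif searches were tested on simulated data. The alternatives used another line or background set, fewer probe sets, or another way to combine those of a gene. Python 3.11.15, numpy 2.4.6, pandas 2.3.3 and matplotlib 3.10.9 were used.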

Additional observations from a re-analysis of the deposited data

How the results depend on the processing

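The 7 genes Ctse, Tff1, Cldn18, Anxa10, Vil1, Lgals4 and Fabp2 were above the line under all 6 alternatives tried for the line, and the count was 7 or 8. The eighth was Gkn1, whose margin over the line, -0.01 on the log2 scale, became 0.24 with the line at the 90th percentile and 0.15 without keratin-associated genes in the background set. The share of all genes above the line changed too, from 63.3% to 66.7% at the 90th percentile and 52.8% at the 99th. It was 65.4% without keratin-associated genes in the background set and 58.8% by the median probe set. It was 47.0% by the lowest probe set and 60.5% without probe sets whose names end in _x_at, _s_at or _a_at. The count above the upper limit was 7 under all 3 of its alternatives. Of 60 margins recomputed, 55 kept their sign and moved by less than 1.45, the median SD between probe sets of a gene on the log2 scale. Another 3 moved by more, and 2, both for Gkn1, turned sign with a smaller move. The 3 were Ctse at 1.34 and Anxa10 at 2.01 when the lowest probe set was used, and Anxa10 at 2.01 without probe sets whose names end in _x_at, _s_at or _a_at. A changed line shifts the margins of all 10 genes alike. A gene with 1 probe set has the same highest, median and lowest signal. Many of the 60 margins could thus not vary from gene to gene, and their count is no measure of stability. Of 108 list counts recomputed, 20 moved by more than 1.5 times. With the line at the 99th percentile, the genes above it went from 7 to 4 in the gastric surface and neck list, from 6 to 3 in the lung list, from 3 to 1 among goblet and Paneth genes, from 5 to 2 among fatty acid and retinoid binding proteins, from 2 to 1 among gastrokines, and from 1 to 0 among chief, parietal and endocrine genes and among gel-forming mucins. Other cell types went from 3 to 0 there, to 6 at the 90th percentile, to 5 without keratin-associated genes in the background set, and to 1 by the median or the lowest probe set. The chief, parietal and endocrine count rose to 2 at the 90th percentile and without keratin-associated genes. Fatty acid and retinoid binding proteins went to 3 by the median or the lowest probe set, and gastrokines to 1 by the lowest. Leaving out probe sets whose names end in _x_at, _s_at or _a_at left 136 of 173 listed genes other than the 10 measured. There annexins went from 10 to 6, housekeeping genes from 5 to 2 and gastrokines from 2 to 0. Such a count can fall because a gene was no longer measured. With 1 array and no detection call, a signal near the line does not tell presence from absence.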
